A study of Mus musculus with 6 samples.

Results

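The Bcl2 family decides whether a cell keeps its mitochondria intact or releases the proteins that start apoptosis, and 10 of its genes, chosen by symbol, are described here out of 44788 genes in a table of read counts. The genes were the pro-survival members Bcl2, Bcl2l1, Bcl2l2 and Mcl1, a pore-forming effector (Bak1), and the BH3-only members Bcl2l11, Bmf, Bid, Bad and Bik. The family has further effector and BH3-only genes, so ranks and sums hold among the listed members only. Of the 10 listed members, 9 passed the filter on low counts and were tested. Bik had no count in any of the 6 libraries.

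The cells were chondrocytes, which build cartilage, taken from the femoral epiphysis of C57BL/6 mice and cultured in DMEM/F12 with 10% FBS. There were 3 groups of 2 libraries each. Cells of the first were given 10 µM gefitinib, an inhibitor of the epidermal growth factor receptor (EGFR) kinase, 30 min ahead of 10 ng/ml TGF-alpha, an EGFR ligand, and then both for 48 h (TGF-alpha plus gefitinib). Cells of the second received TGF-alpha at that dose and time (TGF-alpha), and those of the third the vehicle alone for 48 h (control). Every group had 0.1% DMSO in the medium per the treatment protocol, while the series design names PBS for the control. The age is given as postnatal day 1, whereas the culture and design notes use the term P2, which they do not explain. No source says whether replicates were separate cultures or animals, so p-values measure no more than the spread between samples that may be technical repeats. No group with gefitinib alone was analysed here.

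Pro-survival proteins hold the effectors in check at the outer mitochondrial membrane, and BH3-only proteins, which respond to particular stresses, bind and neutralise the pro-survival proteins or activate the effectors directly. Growth factor signalling also acts on the family after translation. ERK phosphorylates the Bcl2l11 product BIM and marks it for destruction, and the AKT and RSK kinases phosphorylate BAD, which is then held by 14-3-3 proteins. In cartilage, some hypertrophic chondrocytes die at the end of growth plate maturation, and chondrocytes are lost from damaged joints.

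Total counts lay between 12317407 and 16096263 per library. The 8 chondrocyte markers, among them Col2a1 and Acan, were all detected. They summed to 54720 to 57566 CPM (read counts scaled to equal library totals) with TGF-alpha plus gefitinib. The sum was 32893 to 33999.9 CPM with TGF-alpha and 62257 to 66810 CPM in control, and Col2a1 made up most of it. All 8 fell with TGF-alpha against control, from 1.31-fold for Sox9 to 15.1-fold for Matn1. All 8 rose with TGF-alpha plus gefitinib against TGF-alpha. The leukocyte marker Ptprc was at 0 in every library, the macrophage gene Csf1r had at most 9 counts, and the endothelial and erythroid markers had at most 8 and 6 counts in a library. Summed over 5 macrophage and leukocyte markers in the table, the level was 6.51 to 8.96, 12 to 15.6 and 5.46 to 5.54 CPM in the same order of groups. The 3 of them that were tested did not move together, since Cd68 and Cd14 rose (5.7-fold and 3.4-fold) and Lyz2 fell (2.99-fold) with TGF-alpha against control, and the reverse held for all 3 with TGF-alpha plus gefitinib against TGF-alpha. Fibroblast and perichondrial markers summed to 16485 to 16877, 14399 to 14520 and 21983 to 23871 CPM, and osteoblast markers to 96.4 to 97.5, 79.9 to 86.5 and 144.9 to 153.9 CPM. The fibroblast sum was mostly collagen mRNA and its 6 genes differed: with TGF-alpha against control 3 fell, among them Col1a1 and Col1a2, Pdgfra rose 1.88-fold, and Col3a1 and Thy1 were not called (log2 0.04 and 0.03). Of 4 tested osteoblast markers, 2 fell and none rose with TGF-alpha against control, and 2 rose and 2 fell with TGF-alpha plus gefitinib against TGF-alpha. The 6 genes of cycling cells, such as Mki67, summed to 193 to 200.5 CPM with TGF-alpha plus gefitinib, 492 to 539.6 CPM with TGF-alpha and 211 to 226 CPM in control. The part of these shifts in the results on the Bcl2 family was not tested. In bulk samples, fewer cells of a type and less RNA per cell cannot be told apart.

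Levels were first compared between members. Counts grow with transcript length, so this was done on CPM per kilobase of the gene's merged exons in GENCODE M21. Bak1, whose product makes pores in the outer mitochondrial membrane, stood highest in every group, at 39.9 ± 1.76 CPM per kb with TGF-alpha plus gefitinib, 33.5 ± 2.41 with TGF-alpha and 33.6 ± 1.86 in control (SD, n = 2 each).

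Among the pro-survival genes, 3 lay close together and Bcl2 far below them. In control, Bcl2l2, which encodes BCL-W, was at 16.0 ± 0.645 CPM per kb, Mcl1, which encodes a short-lived survival protein, at 15.7 ± 0.13, and Bcl2l1, the gene of BCL-XL, at 13.7 ± 0.456. The Bcl2l2 and Mcl1 levels did not differ beyond their spread. Bcl2, the founding member of the family, was at 0.39 ± 0.0202 CPM per kb with TGF-alpha plus gefitinib, 0.419 ± 0.0919 with TGF-alpha and 0.393 ± 0.0249 in control, below all other tested members in each group.

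Further BH3-only genes, Bbc3 and Pmaip1, are described below and are not ranked here. The BH3-only members covered a wide range. Bad, the BCL-XL binder that growth factor kinases restrain, was the highest of them, at 13.2 ± 1.05 CPM per kb with TGF-alpha plus gefitinib, 11.3 ± 0.886 with TGF-alpha and 10.5 ± 0.577 in control. It made up 58.8% to 64.9% of the summed level per kb of the listed BH3-only members in the 6 libraries. Bmf, which in its inactive state binds myosin V motors, was next at 4.31 ± 0.136, 2.97 ± 0.222 and 4.65 ± 0.752 CPM per kb in that order of groups. Bid, which caspase-8 cleaves to link death receptors to mitochondria, followed at 2.72 ± 0.0268, 1.69 ± 0.241 and 1.64 ± 0.199 CPM per kb. Bcl2l11 was the lowest of the detected BH3-only members, at 0.847 ± 0.0572, 1.5 ± 0.0806 and 1.02 ± 0.0697 CPM per kb. With TGF-alpha, the Bcl2l11 and Bid levels per kb overlapped, since the 2 libraries gave 1.55 and 1.44 for Bcl2l11 and 1.52 and 1.86 for Bid.

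The remaining BH3-only member was Bik, named for a BCL2-interacting killer of the endoplasmic reticulum. Its 0 counts allow a level of up to 0.191 to 0.24 CPM, taking 3 counts of the scaled total in each library as the limit, for counting error only. When the longest coding transcript replaced the merged exons as the length, Bak1 stayed highest and Bmf, Bid, Bcl2l11 and Bcl2 stayed last in that order in each group, while the order of Bcl2l1, Bcl2l2, Mcl1 and Bad changed.

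**Figure D1:**
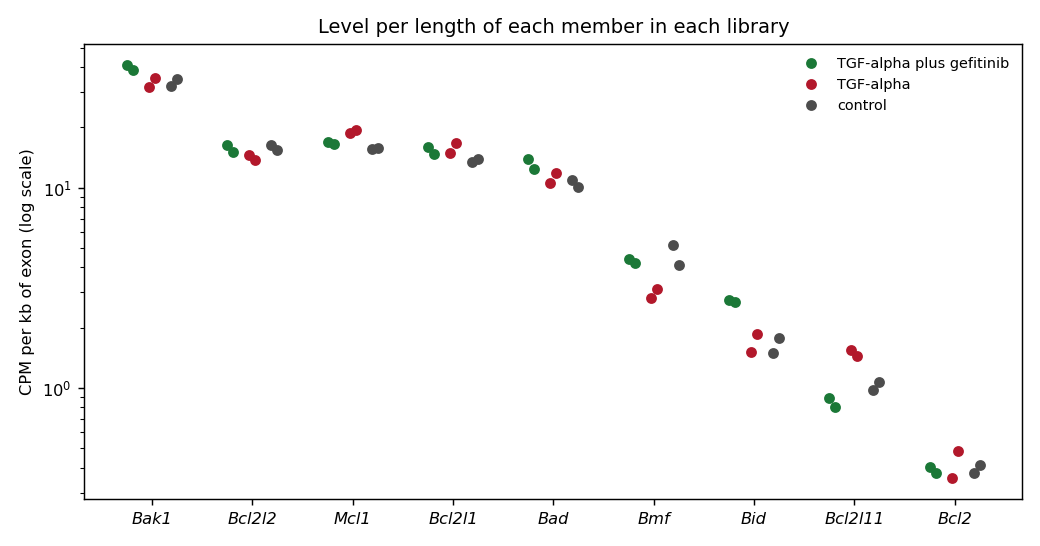
Level of each tested member in each library, in CPM per kb of merged exons on a log scale, with members ordered by their control mean and 2 points per group. Bak1 lies highest, Bcl2 lowest, and Bmf, Bid and Bcl2l11 lie between them below the other 5 members.

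Summed by role, the 4 pro-survival genes reached 49.8 and 46.8 CPM per kb in the TGF-alpha plus gefitinib libraries, 48.5 and 50.6 in the TGF-alpha libraries and 45.8 and 45.7 in the control libraries. The 5 BH3-only members together reached 22 and 20.2 CPM per kb with TGF-alpha plus gefitinib, 16.5 and 18.3 with TGF-alpha and 18.6 and 17.1 in control. The BH3-only genes Bbc3 and Pmaip1, described below, are outside this sum. The shares of the sum and the ratios to it therefore hold for the listed members only. The pro-survival sum was therefore above the BH3-only sum in every library, by a ratio of 2.27 and 2.32 with TGF-alpha plus gefitinib, 2.94 and 2.76 with TGF-alpha and 2.47 and 2.68 in control. The libraries of the 3 groups did not overlap in this ratio, which is a description of mRNA levels per length with no test. Bad alone made up 58.8% to 64.9% of the BH3-only sum. In the main fit of the comparisons below, Bad was not called at an adjusted p under 0.05. With the longest coding transcript as the length, the ratio was 1.92 and 1.96 with TGF-alpha plus gefitinib, 2.43 and 2.31 with TGF-alpha and 2.11 and 2.28 in control, again without overlap.

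TGF-alpha against control addressed what EGFR activation does to these genes. Of 9 tested members, 2 rose (Mcl1 and Bcl2l11), 1 fell (Bmf) and 6 were not called at an adjusted p under 0.05. Those 3 make 33.3% of the tested members, beside 29.9% of all 15362 tested genes called in this comparison, so the share is near the background (15.9% of all tested genes were called higher and 14% lower). The median log2 fold change of the 9 members was 0.09, beside 0.0039 for all tested genes, and the median of its size was 0.17, beside 0.229.

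Among the pro-survival genes, Mcl1 was the one called (chromosome 3, 95658788 to 95663176, plus strand, GRCm38). It had 64.2 and 66.8 CPM with TGF-alpha, against 53.3 and 53.9 CPM in control. Both TGF-alpha libraries lay above both control libraries, and Mcl1 rose 1.22-fold (log2 0.29 ± 0.07 SE, adjusted p = 0.00375). Bcl2l1 had 68.1 and 76.6 CPM with TGF-alpha and 61.4 and 64.4 CPM in control. These libraries did not overlap either, but the difference missed the threshold (log2 0.20, 95% interval 0.04 to 0.36, adjusted p = 0.0534). Bcl2l1 was called higher in 5 of the 12 other settings (adjusted p 0.0147 to 0.421), among them without TGF-alpha 1 (0.0328). Bcl2l2 had 64.8 and 61.7 CPM with TGF-alpha and 73.3 and 69.2 CPM in control, the opposite order, also short of the threshold (log2 -0.17, interval -0.32 to -0.02, adjusted p = 0.0772). Bcl2 had only 3.25 and 4.44 CPM with TGF-alpha and 3.43 and 3.76 CPM in control, and its interval ran from -0.45 to 0.64.

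The 2 BH3-only genes that were called moved in opposite directions. Bcl2l11, the gene of BIM (chromosome 2, 128126038 to 128162547, plus strand), had 12.5 and 11.6 CPM with TGF-alpha, against 7.81 and 8.60 CPM in control. It rose 1.46-fold with the growth factor (log2 0.55 ± 0.16, adjusted p = 0.0149). Bmf (chromosome 2, 118528757 to 118549687, minus strand) had 14.8 and 16.4 CPM with TGF-alpha, against 27.2 and 21.7 CPM in control. It fell 1.56-fold (log2 -0.64 ± 0.13, adjusted p = 0.00117), and the control libraries were farther apart than the TGF-alpha libraries. Because Bcl2l11 is scarce per kb and Bmf more abundant, Bcl2l11 made up 9.41% and 7.86% of the BH3-only sum per kb with TGF-alpha and 5.23% and 6.27% in control, while Bmf made up 17.0% and 17.1% with TGF-alpha and 27.9% and 24.1% in control.

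The other BH3-only members and Bak1 differed less between these groups. Bid had 5.41 and 6.62 CPM with TGF-alpha and 5.31 and 6.30 CPM in control, and the libraries overlapped (log2 0.04, interval -0.37 to 0.46). Bad had 27.2 and 30.4 CPM with TGF-alpha and 27.9 and 25.9 CPM in control (log2 0.10, interval -0.12 to 0.32). Bak1 had 76.4 and 84.6 CPM with TGF-alpha and 77.7 and 84.1 CPM in control, with an interval of -0.16 to 0.14. The intervals of Bad and Bak1 leave room for differences of at most 0.32 and 0.16 on the log2 scale, and that of Bid for larger ones. The calls on Mcl1 and Bmf were kept in all 12 other settings. The call on Bcl2l11 was lost without TGF-alpha 1 (adjusted p = 0.095), without control 1 (0.0916) and with DESeq2 (0.0881), within a range of 0.00758 to 0.095 over those settings.

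**Figure D2:**
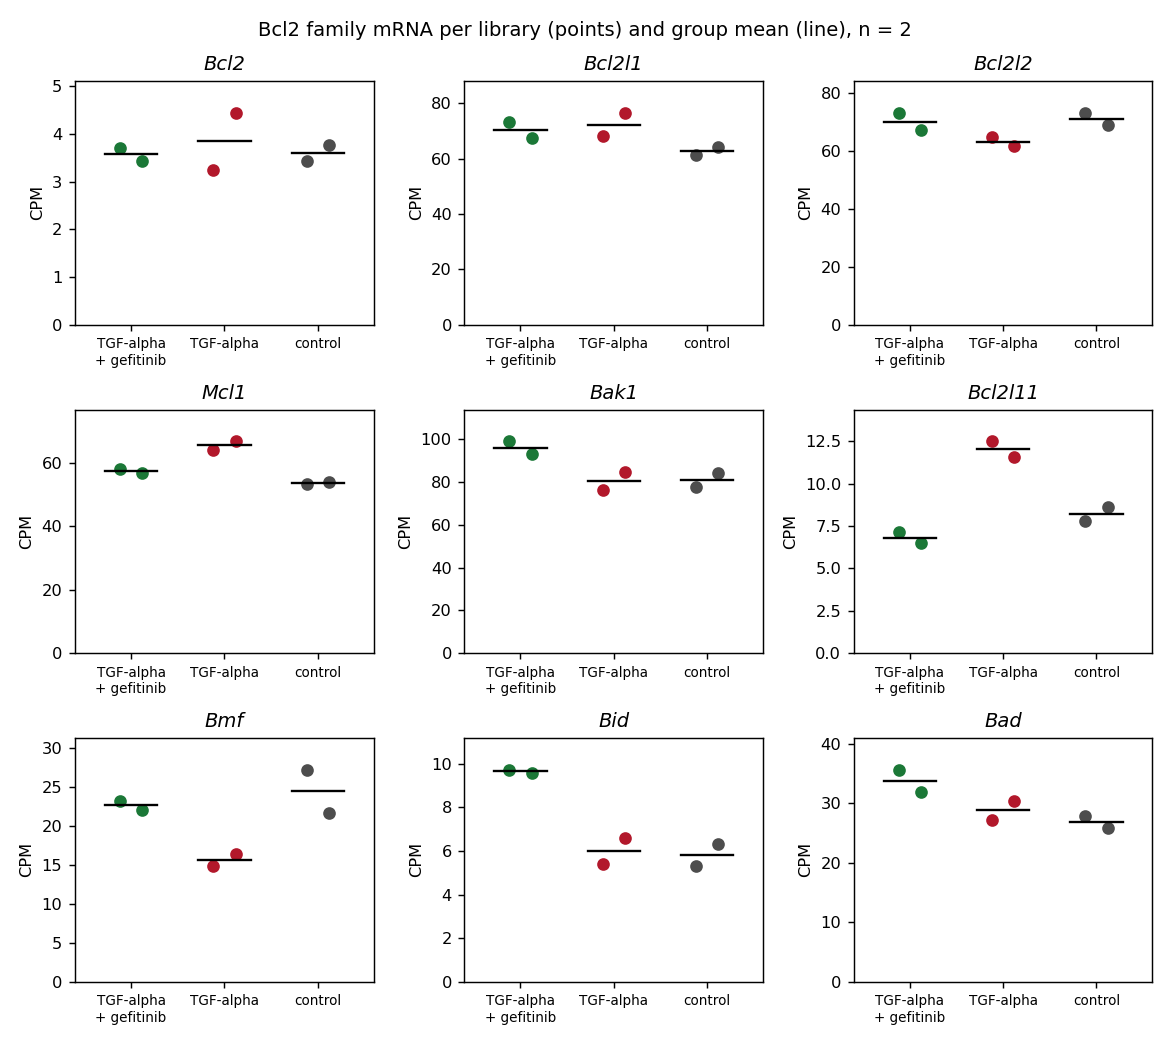
CPM of each tested member in each library (points) with the group mean (line) on axes from 0, for TGF-alpha plus gefitinib, TGF-alpha and control. Bcl2l11 and Mcl1 are highest and Bmf lowest with TGF-alpha, and Bid and Bak1 are highest with TGF-alpha plus gefitinib.

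Promoter sequences are shown for Mcl1, Bcl2l11 and Bmf, since these 3 members were called one way with TGF-alpha and the other way when gefitinib was added. The second of these calls on Mcl1 was kept in only 3 of the 12 other settings, as described below. RefSeq (GRCm38.p6) gave promoters, 250 bases before to 50 after a transcription start, for 9 of the 10 members, 15 in all. For each gene the start farthest upstream is printed, 5′ to 3′ on the gene's strand, with the motif matches in capitals. They cover chr3:95658471-95658770 for Mcl1 and chr2:128125788-128126087 for Bcl2l11, both on the plus strand, and chr2:118549637-118549936 for Bmf on the minus strand.
Mcl1: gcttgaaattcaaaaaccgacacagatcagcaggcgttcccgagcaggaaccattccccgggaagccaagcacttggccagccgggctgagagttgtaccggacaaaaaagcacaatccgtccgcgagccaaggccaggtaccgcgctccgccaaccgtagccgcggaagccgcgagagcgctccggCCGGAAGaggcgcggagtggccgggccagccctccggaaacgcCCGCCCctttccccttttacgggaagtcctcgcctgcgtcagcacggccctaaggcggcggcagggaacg
Bcl2l11: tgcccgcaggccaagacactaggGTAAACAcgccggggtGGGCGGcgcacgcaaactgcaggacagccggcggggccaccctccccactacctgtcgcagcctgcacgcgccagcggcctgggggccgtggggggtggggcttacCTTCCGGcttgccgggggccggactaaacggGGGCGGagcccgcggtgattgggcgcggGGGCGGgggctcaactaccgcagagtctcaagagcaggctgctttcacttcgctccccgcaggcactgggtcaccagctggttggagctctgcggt
Bmf: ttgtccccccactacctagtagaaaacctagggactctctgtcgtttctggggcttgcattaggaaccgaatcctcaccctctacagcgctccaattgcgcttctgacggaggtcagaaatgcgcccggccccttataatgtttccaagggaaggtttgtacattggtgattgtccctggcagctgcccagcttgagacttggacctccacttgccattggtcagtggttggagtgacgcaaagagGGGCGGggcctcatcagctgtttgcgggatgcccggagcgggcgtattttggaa

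The motifs searched, on both strands, were GTAAACA (FoxO), TGANTCA (AP-1), CACGTG (E-box), TTTNGCGC (E2F), TGACGTCA (cAMP response element), GGGCGG (Sp1) and CCGGAAG (Ets). No matches overlapped in these 15 promoters. The FoxO letters were found in 1 of the 15, that of Bcl2l11 at position -227 from the start, beside 3.65% of all 32851 mouse promoters. The Ets letters stood at -63 in Mcl1 and -105 in Bcl2l11 and in 3 of the 15 in all, beside 8.86% of all promoters. Sp1 letters were in 8 of the 15, beside 35.7% of all, and stood at -20 in Mcl1, at -211, -74 and -46 in Bcl2l11 and at -4 in Bmf. The E2F letters were in 1 of the 15 (a Bcl2l1 promoter), beside 1.38% of all. The AP-1, E-box and cAMP response letters were in 0 of the 15, beside 7.81%, 7.15% and 1.79% of all. GC content was 65.7% for Mcl1, 71.0% for Bcl2l11 and 55.3% for Bmf, with 33, 27 and 13 CG dinucleotides. Such matches describe the sequence and do not show binding.

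The effect of the receptor inhibitor in ligand-treated cells was read from TGF-alpha plus gefitinib set against TGF-alpha. Of 9 tested members, 3 rose (Bid, Bmf and Bak1) and 2 fell (Bcl2l11 and Mcl1). These 5 make 55.6% of the tested members, beside 34.0% of all tested genes called in this comparison (17.0% higher and 16.9% lower). The median log2 fold change was 0.15, beside 0.0131 for all tested genes, and the median size 0.23, beside 0.254. The comparison shares the TGF-alpha libraries with TGF-alpha against control, so opposite signs in the 2 comparisons are not independent of each other.

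Bcl2l11 had the largest change of the 9, with 7.13 and 6.48 CPM with TGF-alpha plus gefitinib, against 12.5 and 11.6 CPM with TGF-alpha. It fell 1.76-fold with the inhibitor (log2 -0.82 ± 0.16, adjusted p = 0.00107), to 4.04% and 4% of the BH3-only sum per kb. Bmf had 23.2 and 22.1 CPM with TGF-alpha plus gefitinib, against 14.8 and 16.4 CPM with TGF-alpha, and rose 1.45-fold (log2 0.54 ± 0.13, adjusted p = 0.0042). Neither gene's libraries overlapped between the groups.

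Bid (chromosome 6, 120891930 to 120916853, minus strand) had 9.73 and 9.59 CPM with TGF-alpha plus gefitinib, against 5.41 and 6.62 CPM with TGF-alpha. It rose 1.61-fold (log2 0.68 ± 0.19, adjusted p = 0.0102), although it had not been called between TGF-alpha and control. Bad had 35.6 and 31.8 CPM with TGF-alpha plus gefitinib and 27.2 and 30.4 CPM with TGF-alpha, and did not reach the threshold (log2 0.23, interval 0.02 to 0.44, adjusted p = 0.0899). Bak1 (chromosome 17, 27019810 to 27029009, minus strand) had 99.1 and 93.1 CPM with TGF-alpha plus gefitinib, against 76.4 and 84.6 CPM with TGF-alpha. Bak1 rose 1.19-fold (log2 0.26 ± 0.07, adjusted p = 0.0102).

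Of the pro-survival genes, only Mcl1 was called. It had 58.2 and 56.8 CPM with TGF-alpha plus gefitinib, against 64.2 and 66.8 CPM with TGF-alpha, and fell 1.14-fold (log2 -0.19 ± 0.07, adjusted p = 0.0399). Bcl2l2 had 73.3 and 67.3 CPM with TGF-alpha plus gefitinib and 64.8 and 61.7 CPM with TGF-alpha, in the direction opposite to Mcl1 but short of the threshold (log2 0.15, interval 0.01 to 0.30, adjusted p = 0.101). Bcl2l1 had 73.2 and 67.5 CPM with TGF-alpha plus gefitinib and 68.1 and 76.6 CPM with TGF-alpha, and these libraries overlapped (log2 -0.04, interval -0.20 to 0.12). Bcl2 had 3.70 and 3.44 CPM with TGF-alpha plus gefitinib and 3.25 and 4.44 CPM with TGF-alpha, with an interval of -0.65 to 0.45.

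Without TGF-alpha 1 only Bcl2l11 of these 5 members was called (adjusted p = 0.014), with Bmf at 0.0516, Bid at 0.0954, Bak1 at 0.138 and Mcl1 at 0.0808. Without TGF-alpha plus gefitinib 1 the count was 3, with Bak1 at 0.0946 and Mcl1 at 0.0641, and with DESeq2 it was also 3, with Bid at 0.0508 and Mcl1 at 0.165. Over the 12 settings adjusted p ranged from 3.22e-05 to 0.014 for Bcl2l11, 0.000168 to 0.0516 for Bmf, 0.00239 to 0.0954 for Bid, 0.00237 to 0.138 for Bak1 and 0.0366 to 0.20 for Mcl1, which was called in 3 of them and had adjusted p = 0.0503 with the replicate number as a block.

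**Figure D3:**
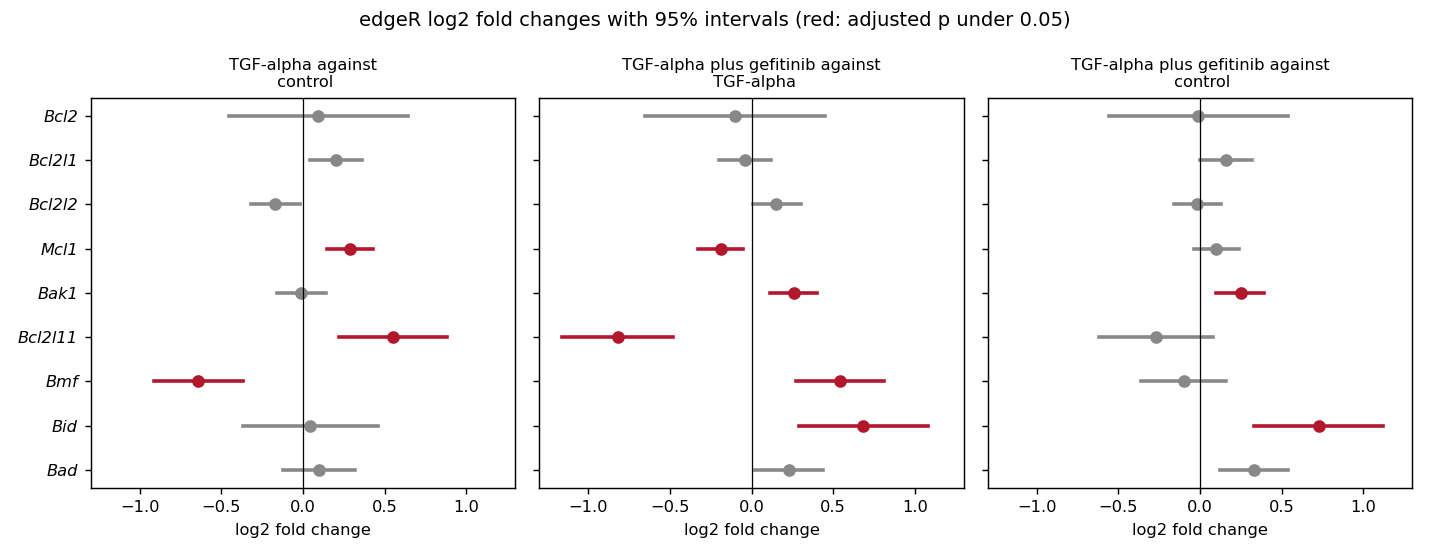
edgeR log2 fold changes (points) with 95% intervals (lines) for the 9 tested members in the 3 comparisons, red where the adjusted p was under 0.05. Bcl2l11, Mcl1 and Bmf are red on opposite sides of 0 in the first and second panels, and Bid and Bak1 are red in the second and in the last.

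TGF-alpha plus gefitinib against control set inhibited cells beside cells that had neither agent. Of 9 tested members, 2 rose (Bid and Bak1) and none of the others passed the test, which is 22.2% of the tested members, beside 9.52% of all tested genes called (5.27% higher and 4.26% lower). Bid had 9.73 and 9.59 CPM with TGF-alpha plus gefitinib, against 5.31 and 6.30 CPM in control, and rose 1.66-fold (log2 0.73 ± 0.19, adjusted p = 0.0226). Bak1 had 99.1 and 93.1 CPM with TGF-alpha plus gefitinib, against 77.7 and 84.1 CPM in control, and rose 1.19-fold (log2 0.25 ± 0.07, adjusted p = 0.0359). Bad had 35.6 and 31.8 CPM with TGF-alpha plus gefitinib, against 27.9 and 25.9 CPM in control, just outside the threshold (log2 0.33, interval 0.12 to 0.54, adjusted p = 0.052), and was called in 2 of the 12 other settings (0.0202 to 0.288). In all 3 genes both libraries with the inhibitor lay above both control libraries. The same held for Bcl2l1 and Mcl1, which were not called (adjusted p = 0.201 and 0.403 by edgeR). Bcl2l11, not called either, lay the other way, with 7.13 and 6.48 CPM below the 7.81 and 8.60 CPM of control. How many of all tested genes separate between these groups was not counted. The smallest exact permutation p for 2 against 2 libraries is 0.33, so such a separation alone is little evidence.

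The genes that had moved with TGF-alpha were not called here. Bcl2l11 had 7.13 and 6.48 CPM with TGF-alpha plus gefitinib, against 7.81 and 8.60 CPM in control, so that its level with both agents was below control without passing the test (log2 -0.27, interval -0.62 to 0.08, adjusted p = 0.361). Bmf had 23.2 and 22.1 CPM with TGF-alpha plus gefitinib and 27.2 and 21.7 CPM in control, and the libraries overlapped (interval -0.36 to 0.16). Mcl1 had 58.2 and 56.8 CPM with TGF-alpha plus gefitinib and 53.3 and 53.9 CPM in control (log2 0.10, interval -0.04 to 0.24, adjusted p = 0.403). These intervals do not show that the levels were equal. For Bcl2l1, Bcl2l2 and Bcl2 the log2 fold changes were 0.16, -0.02 and -0.01, with intervals of 0.00 to 0.32, -0.16 to 0.13 and -0.56 to 0.54.

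Both calls were lost in some settings. With 1 library left out the log2 fold changes kept their sign, at 0.62 to 0.86 for Bid and 0.19 to 0.31 for Bak1. Leaving out a library of a compared group leaves 1 library in it, and calls over all genes also fell then, as given in the closing section. By edgeR, 0 members were called without control 1, without control 2 or without TGF-alpha plus gefitinib 1, where 3, 2 and 2 members had an unadjusted p under 0.05, and 1 (Bak1, adjusted p = 0.0454) was called without TGF-alpha plus gefitinib 2. DESeq2 called 0 members, with 3 at an unadjusted p under 0.05, and the adjusted p of Bid ranged from 0.00369 to 0.153 and that of Bak1 from 0.0114 to 0.264 over the 12 settings.

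Some members share bases with neighbours, and the sources used here do not give whether counting used strand, so reads from such stretches cannot be told apart. The exons of Bid share 628 bases (17.7% of its exon length) with Bcl2l13, a mitochondrial family member on the other strand. Bcl2l13 had 50.6 and 43.9 CPM with TGF-alpha plus gefitinib and 39.0 and 40.6 CPM with TGF-alpha, levels above those of Bid, and it also rose in that comparison (log2 0.25 ± 0.09, adjusted p = 0.0379). Between TGF-alpha plus gefitinib and control its log2 fold change was -0.01, where that of Bid was 0.73. Bak1 shares up to 437 bases (18.2%) with an entry of Ggnbp1 on the other strand, which had 8.91 and 7.84 CPM with TGF-alpha plus gefitinib and 7.5 and 6.54 CPM with TGF-alpha, far below Bak1. Bad shares 524 bases (20.5%) with Gpr137 on the other strand, which had 29.0 and 27.8 CPM with TGF-alpha plus gefitinib and 26.4 and 24.6 CPM with TGF-alpha (log2 0.16, adjusted p = 0.268). Bcl2l2 shares 594 bases (13.3%) on its own strand with Gm20521, and Bcl2 shares 558 bases (6.09%) with the antisense gene D630008O14Rik.

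For the 3 members called in both of the first comparisons, the nearest profiles over the 6 libraries were looked for among tested genes that averaged 10 CPM or more, by the root mean square difference of centred log2 CPM. Nearest to Bcl2l11 were Vrk1 (difference 0.0225, Pearson r = 0.998), Hjurp (0.0586, r = 0.992) and Zfp367 (0.0632, r = 0.983). Nearest to Bmf were Ppp1r26 (0.0535, r = 0.984), Mtss1l (0.0683, r = 0.974) and Acot2 (0.0701, r = 0.972). Nearest to Mcl1 were Prkd2 (0.017, r = 0.998), Pttg1ip (0.0173, r = 0.99) and Anp32b-ps1 (0.0236, r = 0.988), a pseudogene whose reads may be split with its parent gene. The 6 points share libraries and fall into 3 groups, and these genes were the closest of many, so the values are descriptions.

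Other genes of the family were listed too. Like the members, this list and those below were chosen with earlier results of these data known. The shares called in them are therefore descriptions only. Of 14 listed, 7 were tested, and with TGF-alpha 3 rose and 1 fell against control, which is 57.1% of the 7, beside 29.9% of all tested genes called. Bnip3, a mitochondrial protein gene of hypoxia and mitophagy, had 159 and 160 CPM with TGF-alpha, against 96.5 and 111 CPM in control (log2 0.62 ± 0.06, adjusted p = 3.16e-06). Its paralog Bnip3l had 58.8 and 57.4 CPM with TGF-alpha, against 41.6 and 43.6 CPM in control (log2 0.45 ± 0.07), and Bok, a relative of Bak1, 9.09 and 8.51 CPM against 5.46 and 5.86 CPM (log2 0.63 ± 0.18, adjusted p = 0.0155). The call on Bok was lost in 4 of 12 settings (adjusted p 0.00859 to 0.0919), and that on Bcl2l13, which fell (log2 -0.26 ± 0.09, adjusted p = 0.0322), in 6 (0.0166 to 0.225).

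When gefitinib was added, 3 of these 7 genes rose and 3 fell against TGF-alpha alone, which is 85.7%, beside 34.0% of all tested genes called. Pmaip1, which encodes the MCL1-binding BH3-only protein NOXA, had 3.63 and 2.80 CPM with TGF-alpha plus gefitinib, against 1.23 and 1.31 CPM with TGF-alpha. It rose 2.54-fold (log2 1.34 ± 0.33, adjusted p = 0.00563), and the call was lost without TGF-alpha plus gefitinib 1 (0.0661, range 0.00072 to 0.0661). Bbc3, the gene of the BH3-only protein PUMA, had 14.3 CPM in each library with TGF-alpha plus gefitinib, against 10.5 and 11.3 CPM with TGF-alpha, and rose 1.31-fold (adjusted p = 0.03), with the call kept in 7 of 12 settings (0.0317 to 0.17). Bnip3, Bnip3l and Bok fell 1.45-, 1.34- and 1.76-fold, with adjusted p of 1.3e-05, 0.000409 and 0.00314. Against control, 0 of the 7 were called with TGF-alpha plus gefitinib by edgeR, where 1 had an unadjusted p under 0.05, and DESeq2 called 0, with 0 at an unadjusted p under 0.05. The log2 fold changes of Bnip3 and Bnip3l were 0.09 and 0.03 there. That of Pmaip1 was larger and short of the threshold (log2 0.94, interval 0.27 to 1.61, adjusted p = 0.0775 by edgeR).

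A further list held genes whose products bind or modify Bcl2 family proteins. Of 17 partners and modifiers, 4 rose and 5 fell with TGF-alpha against control, and 5 rose and 5 fell with TGF-alpha plus gefitinib against TGF-alpha. These are 52.9% and 58.8% of the list, beside 29.9% and 34.0% of all tested genes, with a median log2 fold change of 0.03 in each. Pim3 and Akt1, which encode kinases that phosphorylate BAD, fell with TGF-alpha (log2 -0.58 ± 0.08 and -0.29 ± 0.04) and rose when gefitinib was added (0.62 ± 0.08 and 0.31 ± 0.04). Rps6ka3, which encodes an RSK kinase, went the other way, at 0.32 ± 0.07 and -0.34 ± 0.07, and Ywhaz, which encodes a 14-3-3 protein, rose by 0.38 ± 0.07 with TGF-alpha. Huwe1, which encodes a ubiquitin ligase for MCL1, fell by 0.21 ± 0.05 with TGF-alpha. Dynll2, the dynein light chain gene whose product binds BMF, had 84.6 and 84.8 CPM with TGF-alpha plus gefitinib, against 60.1 and 57.5 CPM with TGF-alpha, and rose 1.44-fold (adjusted p = 1.08e-05). Akt2 rose by 0.50 ± 0.06 in that comparison. Against control, 4 rose with TGF-alpha plus gefitinib (Dynll2, Akt2, Vdac2 and Dynll1, with log2 0.25, 0.25, 0.21 and 0.23) and 1 fell (Huwe1, log2 -0.18), which is 29.4% of the list, beside 9.52% of all tested genes, and these calls were lost in 3 to 8 of the 12 settings.

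The apoptosome, caspase and inhibitor genes were mostly not called. Of 16, 2 rose and 0 fell with TGF-alpha against control, 0 rose and 2 fell with TGF-alpha plus gefitinib against TGF-alpha, and 1 rose and 0 fell with TGF-alpha plus gefitinib against control. Those counts are 12.5%, 12.5% and 6.25% of the list, below the shares of all genes called. Casp6, an executioner caspase gene, had 27.4 and 25.7 CPM with TGF-alpha, against 16.2 and 18.0 CPM in control (log2 0.63 ± 0.11, adjusted p = 0.000347), and fell 1.42-fold when gefitinib was added. Casp9, the initiator caspase gene of the mitochondrial pathway, had 22.2 and 22.1 CPM with TGF-alpha plus gefitinib, 23.0 and 20.9 CPM with TGF-alpha and 16.4 and 15.5 CPM in control. It rose in both treated groups against control (log2 0.48 ± 0.11 and 0.47 ± 0.11). The call on Casp9 in TGF-alpha against control was lost without TGF-alpha 1 (log2 0.40 to 0.53 over the 12 other settings). In TGF-alpha plus gefitinib against control its call was lost in 3 of 12 settings (log2 0.43 to 0.54).

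In the death receptor pathway, which reaches the Bcl2 family through Bid, 8 of 10 listed genes were tested. Cflar, which encodes the caspase-8 inhibitor FLIP, had 27.4 and 26.9 CPM with TGF-alpha plus gefitinib, 44.2 CPM in each TGF-alpha library and 33.2 and 33.0 CPM in control. It rose with TGF-alpha against control (log2 0.42 ± 0.08, adjusted p = 0.00117) and fell 1.63-fold with gefitinib added (adjusted p = 1.12e-05). Tnfrsf1a, the TNF receptor gene, rose by 0.34 ± 0.05 and fell by 0.25 ± 0.05 on the log2 scale in the same comparisons, and no other of the 8 was called with TGF-alpha. Fas, a death receptor gene, had 12.6 and 12 CPM with TGF-alpha plus gefitinib, against 7 and 9.38 CPM with TGF-alpha, and rose 1.5-fold (adjusted p = 0.012). That call was lost without TGF-alpha 1 (0.132), without TGF-alpha plus gefitinib 1 (0.068) and with DESeq2 (0.0522), in a range of 0.0029 to 0.132. With TGF-alpha plus gefitinib against control, 1 of the 8 fell (Cflar, log2 -0.29 ± 0.09, adjusted p = 0.0482), and that call was kept in 1 of 12 settings (0.0427 to 0.175). The calls made up 25%, 37.5% and 12.5% of the 8 genes in TGF-alpha against control, TGF-alpha plus gefitinib against TGF-alpha and TGF-alpha plus gefitinib against control, near the 29.9%, 34.0% and 9.52% of all tested genes.

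**Figure D4:**
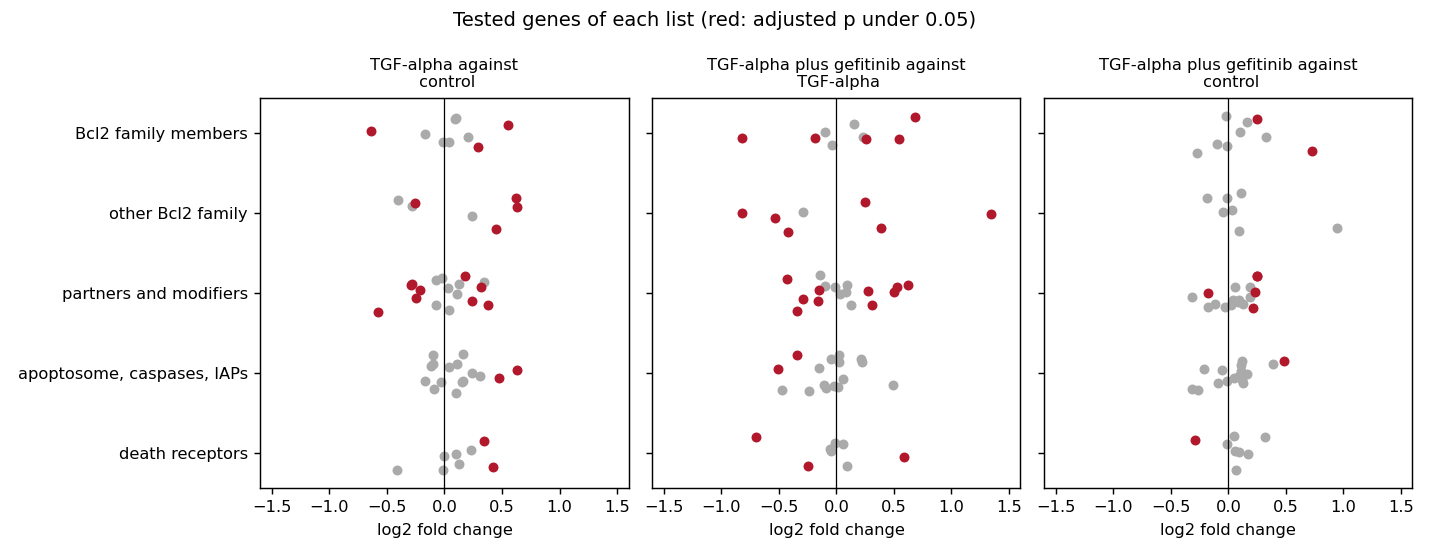
edgeR log2 fold changes of all tested genes of the Bcl2 family members and of 4 further lists in the 3 comparisons, red where the adjusted p was under 0.05. The points of the apoptosome, caspase and inhibitor list are mostly grey, and Pmaip1 is the rightmost red point of the middle panel, at 1.34.

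The receptor and the ligand themselves were measured too. Egfr had 54.9 and 53.9 CPM with TGF-alpha plus gefitinib, 72.0 and 70.3 CPM with TGF-alpha and 69.2 and 65.1 CPM in control. Tgfa had 37.3 and 37.9, 27.8 and 29.0, and 30.6 and 29.4 CPM in the same order. Egfr was lowest and Tgfa highest in the libraries with gefitinib.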

How the data were processed

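Gene expression was measured by RNA sequencing on an Ion Proton, per the labels, in 6 libraries of 3 groups. The authors deposited whole-number read counts per gene, not normalized, with 1 column per library. Per the submitters' processing notes the reads were placed on GRCm38. Not given in the sources used here are the aligner, counter, annotation, strand setting and filters. The table had 44788 genes, 19649 of them without a count. From these counts, edgeR 4.0.16 in R 4.3.3 was run on the 6 libraries together, with no term but group (filterByExpr minimum count 10, 15362 genes kept, TMM scaling, glmQLFit and glmQLFTest, 3 residual and 11.2 prior degrees of freedom). Tests were two-sided and Benjamini-Hochberg adjusted over all tested genes, and a gene was called under 0.05. SE is the log2 fold change divided by the root of F, and 95% intervals use it. CPM are counts scaled to equal TMM-adjusted library totals. The fit was tested on simulated data. Alternatives were DESeq2 1.42.0, RLE or no scaling, no filter, the 4 libraries compared only, a replicate block, and each library left out. Positions, lengths and overlaps came from GENCODE M21 (GRCm38) by symbol. Named were all members, up to 5 called genes with the smallest p in each of 4 lists (2 by level where none was called), and nearest profiles. The neighbours of overlapping members were added after values were seen. Replicates differed by more than counting noise (chi-square per degree of freedom 3.03 to 3.83). The members and lists were chosen with earlier results of these data known. No source gives a batch. One result that the naming rule selects is not reported here. Precision is limited by 2 libraries a group.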

Additional observations from a re-analysis of the deposited data

How the results depend on the processing

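Over the members, 127 values kept call and direction with 1 library left out, 19 lost and 3 gained a call and 13 changed sign; under the other settings these numbers were 148, 7, 4 and 3. Values that were not called and stayed so are among the 127 and the 148. Only called values could lose a call, so these numbers do not give the share of calls kept. The cause of these changes was not tested, and no called value changed sign. With 1 library left out, the number of called members was 2 to 4 in TGF-alpha against control, 1 to 4 in TGF-alpha plus gefitinib against TGF-alpha and 0 to 2 in TGF-alpha plus gefitinib against control. All called genes in the last comparison ranged from 649 (without control 2) to 1291, with 666 without control 1 and 893 without TGF-alpha plus gefitinib 2. DESeq2 called 946 genes and 0 members there, with 3574 adjusted p-values not given, and 3 members in TGF-alpha plus gefitinib against TGF-alpha. Signs changed in TGF-alpha against control for Bak1 (-0.09 to 0.06, and 0.06 without scaling factors), Bcl2 (-0.15 to 0.30) and Bid (-0.11 to 0.18). They changed in TGF-alpha plus gefitinib against TGF-alpha for Bcl2 (-0.31 to 0.14) and Bcl2l1 (-0.12 to 0.05). They changed in TGF-alpha plus gefitinib against control for Bcl2 (-0.07 to 0.06, and 0.05 without scaling factors), Bcl2l2 (-0.09 to 0.04, and 0.05) and Bmf (-0.27 to 0.07). Outside the members, and not in the counts above, signs changed in that comparison for Bnip3 (-0.01 to 0.19) and Bnip3l (-0.02 to 0.07). Without scaling factors, 3034 genes were called higher and 1604 lower in TGF-alpha against control, beside 2446 and 2154 with TMM, and 1333 and 388 in TGF-alpha plus gefitinib against control, beside 809 and 654. The median of all genes then stood at 0.0693 and 0.0666. Libraries sharing a replicate number did not deviate together (correlations 0.0653, 0.00897 and -0.0235 for TGF-alpha with control, TGF-alpha plus gefitinib with TGF-alpha and TGF-alpha plus gefitinib with control), and with that number as a block 4450, 5042 and 1335 genes and 3, 4 and 2 members were called in TGF-alpha against control, TGF-alpha plus gefitinib against TGF-alpha and TGF-alpha plus gefitinib against control. Depth limits Bcl2, which had 43 to 61 counts in a library, and Bik, which had 0.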
